A study of Mus musculus with 24 samples.

Results

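The liver data were examined for 10 genes of the Cyp2c family of cytochrome P450 enzymes, Cyp2c29, Cyp2c37, Cyp2c38, Cyp2c39, Cyp2c40, Cyp2c44, Cyp2c50, Cyp2c54, Cyp2c69, and Cyp2c70, out of 23972 genes in the counts. These genes were named, and thereby selected on earlier results of the same libraries, as Cyp2c genes of lipodystrophic liver, so their differences between genotypes are given as a description without tests. All 10 were found by symbol, with Cyp2c44 listed under its other name, Cyp2c23. A further 5 genes with a Cyp2c symbol, Cyp2c55, Cyp2c67, Cyp2c68, and the pseudogenes Cyp2c52-ps and Cyp2c53-ps, were measured and are used for comparison. Because no filter on low counts was applied, all 10 genes entered each fit.

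RNA of whole liver was sequenced from 24 female mice, 1 library per mouse. All mice carried floxed Lmna alleles (Lmna fl/fl) and had a C57BL/6J background. The controls lacked Adipoq-Cre (labelled Lmna.WT), and Lmna ADKO mice carried it (labelled Lmna.KO), so that the deletion was driven by the promoter of an adipocyte gene and not in hepatocytes. The mice were 12 to 14 weeks old at the start, were housed at 22°C, received a high-fat diet for 4 weeks, were then injected with vehicle or with an adeno-associated virus (AAV8) that expresses FGF21, and were killed 8 weeks later. There were 7 vehicle-treated controls, 3 FGF21-treated controls, 6 vehicle-treated Lmna ADKO mice, and 8 FGF21-treated Lmna ADKO mice. The labels call the treatment a rescue, and its identity as FGF21 was taken from the study's description. Liver counts on Fgf21 itself, as counts per 1000000 scaled reads (CPM), ran from 1.90 to 10.8 in vehicle-treated controls, 3.14 to 7.40 in FGF21-treated controls, 4.63 to 10.6 in vehicle-treated Lmna ADKO mice, and 2.19 to 9.995 in FGF21-treated Lmna ADKO mice, and so did not set the treated groups apart.

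Cyp2c enzymes are membrane-bound monooxygenases of the hepatocyte's endoplasmic reticulum, where they receive electrons from cytochrome P450 reductase. In the mouse, several of them convert arachidonic acid to epoxyeicosatrienoic acids or hydroxylated products, some act on retinoic acid, steroids, or drugs, and Cyp2c70 makes the muricholic bile acids of rodents. Many are known to be controlled in liver by the nuclear receptors CAR and PXR, by hepatocyte nuclear factors such as HNF4A, and by the sex-dependent pattern of growth hormone, which makes Cyp2c40 and Cyp2c69 female-biased genes.

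Each library held from 19863304 to 21510054 counted reads. The defining hepatocyte markers summed to between 65290 and 138300 CPM in every library, as liver should show. With vehicle, the sums ran from 75410 to 132600 CPM (median 109500) in controls and from 66020 to 101400 CPM (median 86610) in Lmna ADKO mice. Of these 6 markers, 1 was called lower in Lmna ADKO mice and 0 higher, with a median log2 fold change of -0.30. A cholangiocyte list of 5 genes, of which Spp1 was called higher, summed to 27.0 to 51.2 CPM in vehicle-treated controls and 85.8 to 196 CPM in vehicle-treated Lmna ADKO mice. The summed levels of the macrophage, lymphocyte, and endothelial lists overlapped between these groups, with Gpnmb of the 7 macrophage genes and Lyve1 of the 5 endothelial genes called higher, and the stellate cell list, with Lrat and Acta2 of 6 genes called higher, ran from 75.0 to 110 CPM in the controls and 89.6 to 134 CPM in Lmna ADKO mice. The part of these cell types in the results was not tested, and in whole tissue fewer hepatocytes and less RNA per hepatocyte cannot be told apart. In 3 libraries, FGF21-treated Lmna ADKO mouse 7, FGF21-treated control mouse 3, and vehicle-treated control mouse 3, levels fell more with gene length than in the other 21 libraries. Values without these are given for some genes only, and others also moved. Animal numbers have 3 or 4 digits, with 3 digits in 6 of 7 vehicle-treated controls and 4 digits in 5 of 6 vehicle-treated Lmna ADKO mice, so that too few mice were left to compare these groups within a number series. What the number series stands for is not stated.

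Of the 10 genes, 9 lie in a cluster on chromosome 19 (GRCm38), from Cyp2c29 at chr19:39269405-39330713 to Cyp2c70 at chr19:40153353-40187333, and Cyp2c44 lies apart at chr19:44005022-44029208. Their coding sequences fall into groups of near-identical genes. Each was taken as the longest open reading frame, and identity was counted over the longer sequence of a pair. Cyp2c40 and Cyp2c69 have 1563 bases and Cyp2c67 and Cyp2c68 have 1476 bases. This difference in length lowers the identity of the former with the latter. Cyp2c67 and Cyp2c68 were 97.15% identical to each other. Cyp2c40 and Cyp2c69 were 97.9% identical to each other and 91.2% to 92.6% identical to Cyp2c67 and Cyp2c68, Cyp2c37, Cyp2c50, and Cyp2c54 were 95.1% to 96.1% identical, and Cyp2c38 and Cyp2c39 were 94.2% identical. Cyp2c29 was 89.1% to 89.5% identical to Cyp2c38 and Cyp2c39. This bears on the counts. Of all windows of 100 bases in the 1 transcript used per gene, 44.1% of those of Cyp2c40 and 36.3% of those of Cyp2c69 also occur in a transcript of another gene, against 23.7% for Cyp2c67, 19.8% for Cyp2c68, 4.70% to 9.40% for Cyp2c37, Cyp2c50, and Cyp2c54, and 0% for Cyp2c29, Cyp2c38, Cyp2c39, Cyp2c70, and Cyp2c44. Another annotated transcript of Cyp2c29 shares 43 windows with the pseudogene Cyp2c53-ps, which overlaps it in position and had at most 1 read in any library. Values of Cyp2c40 and Cyp2c69 in particular therefore depend on how shared reads were divided.

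The promoters of 7 genes of the cluster are shown because these genes are close in sequence but differed in their levels between genotypes. The sequences are the 250 bases before the start given by RefSeq (GRCm38.p6), 5′ to 3′ on the strand of the gene. Capitals mark CAAAGT, the core of sites that HNF4A is known to bind, and TGTTTAC, a forkhead (FOXA) motif, on either strand. Cyp2c40 (chr19:39812815-39813064, minus strand), Cyp2c69 (chr19:39886770-39887019, minus), Cyp2c68 (chr19:39741102-39741351, minus), and Cyp2c67 (chr19:39649043-39649292, minus) form the group nearest to Cyp2c40. Cyp2c29 (chr19:39286835-39287084, plus), Cyp2c38 (chr19:39463076-39463325, minus), and Cyp2c39 (chr19:39510572-39510821, plus) form the other.
Cyp2c40: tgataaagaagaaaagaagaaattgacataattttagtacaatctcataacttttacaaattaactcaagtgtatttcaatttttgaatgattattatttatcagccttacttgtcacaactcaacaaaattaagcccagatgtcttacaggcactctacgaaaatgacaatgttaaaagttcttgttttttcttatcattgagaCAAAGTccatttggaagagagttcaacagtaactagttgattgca
Cyp2c69: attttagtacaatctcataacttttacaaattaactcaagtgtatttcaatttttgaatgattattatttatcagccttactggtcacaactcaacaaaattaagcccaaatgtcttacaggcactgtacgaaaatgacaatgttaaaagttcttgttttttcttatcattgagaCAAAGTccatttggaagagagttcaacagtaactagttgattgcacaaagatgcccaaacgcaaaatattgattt
Cyp2c68: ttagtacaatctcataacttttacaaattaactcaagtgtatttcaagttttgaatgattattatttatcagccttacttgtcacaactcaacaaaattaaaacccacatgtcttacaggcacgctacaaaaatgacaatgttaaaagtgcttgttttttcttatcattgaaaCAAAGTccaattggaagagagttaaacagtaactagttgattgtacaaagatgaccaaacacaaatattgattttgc
Cyp2c67: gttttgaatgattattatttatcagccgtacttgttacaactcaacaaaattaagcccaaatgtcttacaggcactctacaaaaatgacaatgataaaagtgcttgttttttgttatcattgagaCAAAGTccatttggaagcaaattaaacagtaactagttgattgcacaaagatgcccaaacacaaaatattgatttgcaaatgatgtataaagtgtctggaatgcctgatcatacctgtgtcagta
Cyp2c29: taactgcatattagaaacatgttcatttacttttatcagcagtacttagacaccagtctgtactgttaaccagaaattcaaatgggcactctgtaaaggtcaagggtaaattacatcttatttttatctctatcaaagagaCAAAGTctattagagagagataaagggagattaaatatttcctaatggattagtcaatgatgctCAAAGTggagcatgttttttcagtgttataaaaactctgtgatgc
Cyp2c38: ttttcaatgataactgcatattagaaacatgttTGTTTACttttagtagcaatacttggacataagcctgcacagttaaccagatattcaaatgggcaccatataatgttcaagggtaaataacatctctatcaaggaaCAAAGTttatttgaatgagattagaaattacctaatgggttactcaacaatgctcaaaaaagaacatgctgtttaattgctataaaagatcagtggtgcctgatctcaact
Cyp2c39: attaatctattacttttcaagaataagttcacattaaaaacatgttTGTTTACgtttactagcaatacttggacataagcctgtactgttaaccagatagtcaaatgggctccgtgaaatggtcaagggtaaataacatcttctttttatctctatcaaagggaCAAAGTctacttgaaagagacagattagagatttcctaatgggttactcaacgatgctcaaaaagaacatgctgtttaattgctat

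After alignment, the promoter of Cyp2c69 was 86.8% identical to that of Cyp2c40, 92.8% to that of Cyp2c68, and 74.4% to that of Cyp2c67, and the promoter of Cyp2c38 was 79.2% identical to that of Cyp2c39 and 74.8% to that of Cyp2c29. The annotated starts are offset between these genes, so the windows are shifted against each other and the motif's distance to the start differs. A motif can also fall outside a window for this reason. The window of Cyp2c39, for example, ends within the stretch that holds TATAAA in Cyp2c38. CAAAGT lay 45 bases before the start of Cyp2c40, 75 before that of Cyp2c69, 77 before that of Cyp2c68, and 125 before that of Cyp2c67. Of the 11 Cyp2c promoters available, 10 held CAAAGT, all but that of Cyp2c55, compared with 12.6% of 32851 promoters of the same length. TGTTTAC was found in the promoters of Cyp2c38 and Cyp2c39, against 3.17% of all promoters. Other motifs searched on both strands included AGGTCA, a half-site of nuclear receptors, in 2 of the 11 (14.02% of all promoters), TTCNNNGAA, a STAT5 motif, in 0 (7.02%), TTGCNNAA, a C/EBP motif, in 3 (9.56%), ATCAAT, an HNF6 motif, in 5 (6.72%), and TATAAA, the TATA box, in 5 (12.4%). These matches are a description of the letters and no evidence of binding. Promoters alike in sequence, such as those of Cyp2c68 and Cyp2c69, are not independent of each other. Nothing is therefore read from these counts beside the shares of all promoters.

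In vehicle-treated controls, levels per kb of transcript differed widely between the genes. Cyp2c29, an abundant enzyme that makes epoxyeicosatrienoic acids, and Cyp2c37, an arachidonic acid hydroxylase, had the highest levels at 468 ± 151 and 467 ± 175 CPM per kb (SD, n = 7), which did not differ beyond their spread. Cyp2c50 (239), Cyp2c70 (203), Cyp2c69 (139), Cyp2c44 (115), and Cyp2c40 (115) followed, with neighbours in this order within 1 SD of each other. Cyp2c38, another epoxygenase, was at 52.45 ± 12.96, Cyp2c54 at 21.9 ± 17.1, and Cyp2c39, which acts on retinoic acid, at 4.11 ± 1.61 CPM per kb. In vehicle-treated Lmna ADKO mice, the order of the levels was Cyp2c29 (175), Cyp2c70 (92.9), Cyp2c50 (90.1), Cyp2c37 (88.5), Cyp2c38 (48.7), Cyp2c44 (34.2), Cyp2c40 (7.30), Cyp2c39 (3.79), Cyp2c69 (1.66), and Cyp2c54 (0.834 CPM per kb). Those of Cyp2c70, Cyp2c50, and Cyp2c37 there differed by less than their SDs, which ran from 46.1 to 61.6 CPM per kb.

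**Figure D1:**
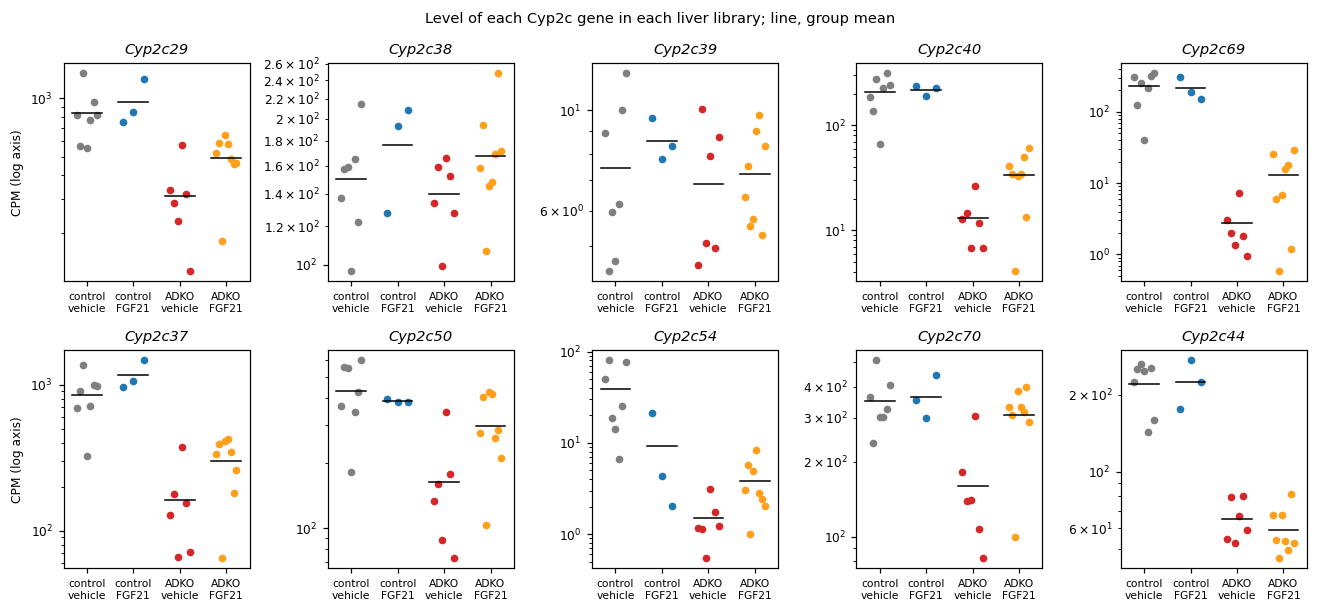
Level of each of the 10 Cyp2c genes (CPM, log axis) in each library, by group (control vehicle n = 7, control FGF21 n = 3, Lmna ADKO vehicle n = 6, Lmna ADKO FGF21 n = 8), with the group mean as a line. Levels of Cyp2c40, Cyp2c69, and Cyp2c44 in Lmna ADKO mice lie below those of all controls with either treatment, whereas Cyp2c38 and Cyp2c39 overlap in all groups.

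With vehicle, 8 of the 10 genes were lower in Lmna ADKO mice than in controls by the call used for all genes (edgeR, adjusted p under 0.05 and fold change above 1.5), and 0 were higher. Over all genes, 3.36% were called lower and 5.12% higher, and since the genes were chosen on such values, nothing is read from this count. The median log2 fold change of the 10 genes was -1.58, beside 0.00 over all genes. The summed level of the 10 genes was 3321 ± 913 CPM (SD, n = 7) in controls and 1026 ± 458 CPM (n = 6) in Lmna ADKO mice. The groups did not overlap for 4 of the 10 genes, Cyp2c40, Cyp2c69, Cyp2c54, and Cyp2c44, and over all genes this was the case for 7.95%.

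Cyp2c69 and Cyp2c40, the female-biased pair, had some of the largest differences. Cyp2c69 ran from 40.0 to 349 CPM (median 252) in vehicle-treated controls and from 0.940 to 7.21 CPM (median 1.92) in vehicle-treated Lmna ADKO mice. All 6 Lmna ADKO mice lay below all 7 controls, and the log2 fold change was -6.40 ± 0.85 (SE), or 84.4-fold lower. Cyp2c40, which hydroxylates arachidonic acid, ran from 66.8 to 315 CPM (median 227) in controls and from 6.79 to 26.2 CPM (median 12.2) in Lmna ADKO mice. The groups were again apart, with a log2 fold change of -3.98 ± 0.52. For both genes the lowest control was mouse 4 and the highest Lmna ADKO mouse was mouse 4 of that group.

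The nearest relatives of this pair are not among the genes chosen and were tested in the same fit. Cyp2c68 fell from 466.2 ± 81.2 to 196 ± 63.3 CPM, by 1.25 ± 0.19 on the log2 scale (edgeR adjusted p = 3.3e-05), with no overlap between groups. Cyp2c67 was at 179 ± 26.6 CPM in controls and 147 ± 14.7 CPM in Lmna ADKO mice, and its log2 fold change of -0.28 ± 0.16 did not pass the test (edgeR adjusted p = 0.28). Without the 3 libraries that stood apart on gene length it was -0.29 ± 0.10 (edgeR adjusted p = 0.045), which is under the fold change needed for a call. Summed over these 4 near-identical genes, which removes the division of shared reads among them, levels were 1081 ± 255 CPM in controls and 360 ± 80.2 CPM in Lmna ADKO mice, with a log2 fold change of -1.59 ± 0.18. The pooled value was smaller in size than those of Cyp2c69 and Cyp2c40 and had the same direction.

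Cyp2c37, Cyp2c50, and Cyp2c54 are close relatives that metabolize arachidonic acid and are found in hepatocytes around the central vein. Cyp2c37 ran from 325 to 1355 CPM (median 911) in controls and from 65.9 to 372 CPM (median 141) in Lmna ADKO mice, so that only Lmna ADKO mouse 4 reached the range of the controls. Its log2 fold change was -2.40 ± 0.44. Cyp2c50 ran from 182 to 599 CPM (median 427) in controls and from 72.7 to 345 CPM (median 147) in Lmna ADKO mice, with a log2 fold change of -1.41 ± 0.35. Cyp2c54 was a much scarcer transcript, at 6.74 to 80.8 CPM (median 25.6) in controls and 0.543 to 3.12 CPM (median 1.20) in Lmna ADKO mice. Controls differed widely among themselves, yet all lay above all Lmna ADKO mice, and the log2 fold change was -4.72 ± 0.72. The sum of these 3 genes was 1323 ± 464 CPM in controls and 326 ± 211 CPM in Lmna ADKO mice, and its log2 fold change was -2.02 ± 0.38.

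Cyp2c29 and its nearest relatives differed in this respect. Cyp2c29 ran from 555 to 1351 CPM (median 819) in controls and from 128 to 571 CPM (median 303) in Lmna ADKO mice, where 5 of 6 mice lay below all controls, with a log2 fold change of -1.42 ± 0.29. Cyp2c38 ran from 96.9 to 215 CPM (median 158) in controls and from 99.3 to 166 CPM (median 143) in Lmna ADKO mice, and Cyp2c39 from 4.41 to 12.1 CPM (median 6.20) and from 4.54 to 10.1 CPM (median 6.52). The groups overlapped for both genes, with log2 fold changes of -0.11 ± 0.17 and -0.11 ± 0.23. These are the members that the call did not include.

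Cyp2c70 ran from 239 to 510 CPM (median 325) in controls and from 82.0 to 306 CPM (median 140) in Lmna ADKO mice, with a log2 fold change of -1.13 ± 0.28. Lmna ADKO mouse 4, again the highest of its group, lay within the controls. By fold change it was the called gene nearest to the limit, at 2.19-fold lower, and Cyp2c39, at 1.08-fold lower, was the nearest not called. Cyp2c44, an epoxygenase encoded apart from the cluster, ran from 143 to 264 CPM (median 247) in controls and from 52.5 to 80.3 CPM (median 63.3) in Lmna ADKO mice. Its groups were apart, and the log2 fold change was -1.75 ± 0.16, with the smallest SE of the 10 genes.

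**Figure D2:**
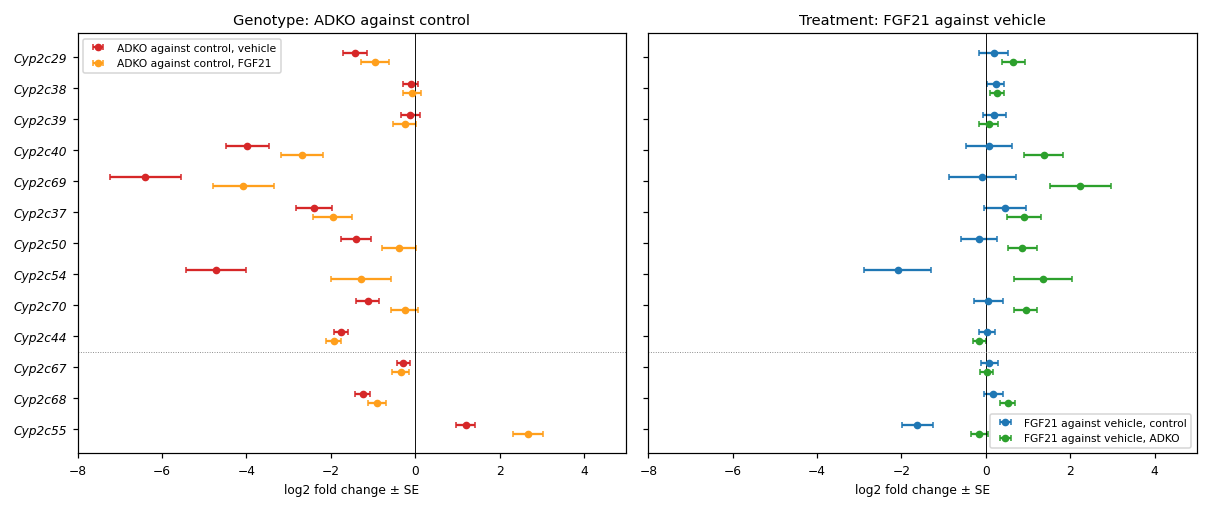
Log2 fold change (x axis, ± SE from the edgeR fit) of the 10 genes and, below the dotted line, 3 further Cyp2c genes, for genotype (left, with vehicle in red and with FGF21 in orange) and treatment (right, controls in blue and Lmna ADKO mice in green). Genotype values run from -6.40 for Cyp2c69 to 2.67 for Cyp2c55, and treatment values of the 10 genes lie between -2.08 and 2.24, none of them called.

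**Figure D3:**
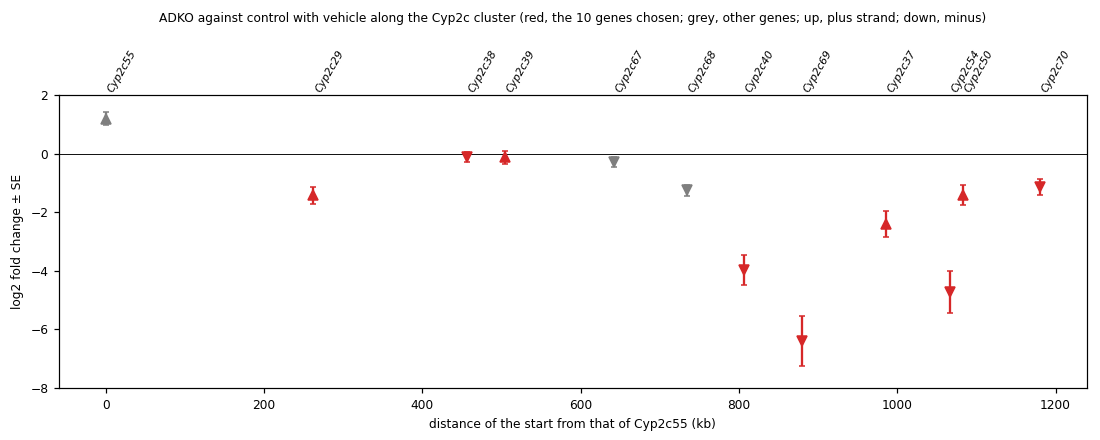
Log2 fold change ± SE of Lmna ADKO against control mice with vehicle, against the distance in kb of each gene's start from that of Cyp2c55, for the 9 chosen genes of the cluster (red) and 3 others (grey). Pseudogenes and Cyp2c44, which lies outside the cluster, are left out, and genes with values near 0 (Cyp2c38, Cyp2c39, Cyp2c67) stand between genes that were lower.

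Cyp2c55, an inducible gene known mainly from the intestine, went the other way. It was at 0.871 ± 0.240 CPM in vehicle-treated controls, or 12 to 24 reads per library, and 1.998 ± 0.576 CPM in vehicle-treated Lmna ADKO mice, or 31 to 65 reads. The groups did not overlap, and it rose by 1.20 ± 0.23 on the log2 scale (edgeR adjusted p = 0.00045). It was the only one of the 15 Cyp2c genes called higher. The pseudogenes had at most 4 reads in any library.

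With FGF21, all 10 log2 fold changes between genotypes were below 0, with a median of -1.12 beside 0.02 over all genes. Of the 10 genes, 4 were called lower and 0 higher, compared with 1.26% and 1.61% of all genes, and again nothing is read from this count. Cyp2c69 was at 308, 188, and 152 CPM in the 3 FGF21-treated controls and between 0.581 and 28.9 CPM (median 11.3) in the 8 FGF21-treated Lmna ADKO mice, with a log2 fold change of -4.08 ± 0.73. Cyp2c40 was at 237, 192, and 227 CPM in the controls and between 4.06 and 61.1 CPM (median 34.5) in Lmna ADKO mice, with a log2 fold change of -2.69 ± 0.50. For both genes all treated Lmna ADKO mice lay below all treated controls.

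Cyp2c44 had the value with the smallest error in this comparison. It was at 176, 273, and 224 CPM in the controls and between 45.8 and 81.9 CPM (median 53.7) in Lmna ADKO mice, a log2 fold change of -1.92 ± 0.18. Cyp2c37 was at 972, 1059, and 1475 CPM in controls and between 64.45 and 423 CPM (median 341) in Lmna ADKO mice, a log2 fold change of -1.96 ± 0.46. The groups did not overlap for these genes or for Cyp2c29, which was at 750, 854, and 1251 CPM in controls and between 183 and 642 CPM (median 504) in Lmna ADKO mice, with a log2 fold change of -0.96 ± 0.33 that was not called. With FGF21, groups thus did not overlap for 5 of the 10 genes, and over all genes for 5.35%. Since the genes were chosen and only 3 controls were compared, nothing is read from this count. Within the mice with 4-digit numbers, 3 controls and 4 Lmna ADKO mice, only Cyp2c44 was called. This fit of fewer mice called 100 of 23972 genes lower and 207 higher, compared with 303 and 387 in the fit of all libraries. Log2 fold changes in the 4-digit mice were -3.77 ± 0.89 for Cyp2c69, -2.47 ± 0.53 for Cyp2c40, -1.97 ± 0.53 for Cyp2c37, and -1.93 ± 0.21 for Cyp2c44. Cyp2c37 was no longer called without the 3 libraries that stood apart on gene length, with a log2 fold change of -1.67 ± 0.55. With the number series as a covariate it was also not called (-1.88 ± 0.53, edgeR adjusted p = 0.063).

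Other genes were closer to the treated controls. Cyp2c70 was at 352, 298, and 443 CPM in treated controls and between 100.2 and 396 CPM (median 323) in treated Lmna ADKO mice, a log2 fold change of -0.25 ± 0.32. Cyp2c50 was at 398, 383, and 384 CPM in controls and between 103 and 425 CPM (median 279) in Lmna ADKO mice, a log2 fold change of -0.38 ± 0.40. For Cyp2c54, the 3 treated controls themselves differed by 10.3-fold, at 21.01, 4.395, and 2.04 CPM, and Lmna ADKO mice ran from 0.995 to 8.44 CPM (median 2.94). Its log2 fold change of -1.28 ± 0.71 depended on which libraries were kept. It was 0.22 ± 0.85 without the first of these controls. Without the 3 libraries that stood apart on gene length, which include the third control, it was -1.67 ± 0.78. Cyp2c38 and Cyp2c39 overlapped, with log2 fold changes of -0.07 ± 0.21 and -0.25 ± 0.27.

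Of the relatives not chosen, Cyp2c68 was again lower in Lmna ADKO mice, by a log2 fold change of -0.90 ± 0.21 (edgeR adjusted p = 0.014, but 0.094 without the 3 libraries that stood apart, 0.053 with the number series as a covariate, and 0.14 within 4-digit mice, so that these end the call), and Cyp2c67 did not pass the test (-0.35 ± 0.19, edgeR adjusted p = 0.38). Cyp2c55 was higher by 2.67 ± 0.36 (edgeR adjusted p = 4.1e-05), at 0.281 ± 0.119 CPM, or 3 to 7 reads, in treated controls and 1.80 ± 0.443 CPM in treated Lmna ADKO mice. Summed, the group of Cyp2c40 went from 1149 ± 116 to 476 ± 106 CPM between treated controls and treated Lmna ADKO mice, with a log2 fold change of -1.27 ± 0.19. That of Cyp2c37 was at 1566 ± 258 and 603 ± 233 CPM, with a log2 fold change of -1.38 ± 0.42 that was not called, unlike that of Cyp2c37 alone.

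The treatment contrasts ask whether FGF21 moved these genes within a genotype. In Lmna ADKO mice, 0 of the 10 genes were called by edgeR and 0 by DESeq2, beside 0% of all genes by edgeR. The log2 fold change was above 0 for 9 of the 10 genes, with a median of 0.88 beside 0.00 over all genes, and 6 of 10 by edgeR and 7 of 10 by DESeq2 had an unadjusted p under 0.05, compared with 6.71% of all genes by edgeR. The vehicle-treated Lmna ADKO mice of this contrast also enter the genotype contrast on which the genes were chosen, so the upward direction is not independent of the choice. Adjusted p-values of the 10 genes by edgeR were 0.57 or above.

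By the exact two-sided permutation test on single genes, Cyp2c70 gave p = 0.021, Cyp2c54 p = 0.025, and Cyp2c50 p = 0.041, unadjusted for the 10 genes, and the other 7 genes gave exact p-values between 0.067 and 0.65. The vehicle-treated mice entered the choice of the genes, so these p-values are not independent of that choice either. Cyp2c70 went from 160 ± 79.1 CPM (SD, n = 6) with vehicle to 306 ± 91.0 CPM (n = 8) with FGF21, a log2 fold change of 0.94 ± 0.27, with 7 of 8 treated mice above the median of vehicle and 6 above all vehicle-treated mice. Cyp2c50 went from 163 ± 98.0 to 298 ± 113 CPM, 0.87 ± 0.34 on the log2 scale, and Cyp2c37 from 161 ± 112 to 301 ± 125 CPM, 0.90 ± 0.40. Cyp2c69 had the largest value at 2.24 ± 0.72, from 2.73 ± 2.31 to 12.8 ± 10.8 CPM, and Cyp2c40 at 1.37 ± 0.46, from 13.2 ± 7.13 to 34.0 ± 18.4 CPM, and Cyp2c54 at 1.36 ± 0.68 could not be ranked against each other. Treated Lmna ADKO mice thus remained far under the 152 CPM of the lowest treated control for Cyp2c69 and the 192 CPM for Cyp2c40. Cyp2c44 was the gene with a value below 0, with 65.6 ± 12.2 CPM with vehicle and 59.1 ± 12.2 CPM with FGF21 (log2 fold change -0.15 ± 0.15).

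A single treated mouse weighed on this comparison. FGF21-treated Lmna ADKO mouse 3 had the lowest level of its group for 9 of the 10 genes, including Cyp2c29 at 183 CPM, Cyp2c37 at 64.45 CPM, Cyp2c69 at 0.581 CPM, and Cyp2c70 at 100.2 CPM. Each library was left out in turn. Without this mouse, Cyp2c70 alone among the 10 genes was called, with a log2 fold change of 1.07 ± 0.22 (edgeR adjusted p = 0.030). The median log2 fold change was 1.02. The share of all genes called in that fit is not given, and the vehicle-treated mice entered the choice of the genes. Nothing is therefore read from this call. Within the 4-digit mice, 5 with vehicle and 4 with FGF21, none of the 10 was called by edgeR, beside 1 of 23972 genes called lower and 1 higher. The log2 fold change in these mice was 1.10 ± 0.30 for Cyp2c70, 2.60 ± 0.81 for Cyp2c69, and 1.59 ± 0.47 for Cyp2c40.

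In controls, 0 of the 10 genes were called with FGF21 by edgeR and 0 by DESeq2, beside 0.0542% of all genes by edgeR. The unadjusted p was under 0.05 for 1 of 10 by either tool, compared with 6.16% of all genes by edgeR. The vehicle-treated controls also entered the choice of the genes. Log2 fold changes lay between -0.16 and 0.46 for 9 of the genes, among them 0.19 ± 0.34 for Cyp2c29 and 0.06 ± 0.33 for Cyp2c70. The other was Cyp2c54, at 39.1 ± 30.5 CPM with vehicle and 9.15 ± 10.3 CPM with FGF21, with a log2 fold change of -2.08 ± 0.79 (edgeR adjusted p = 0.72, exact permutation p = 0.067). Without FGF21-treated control mouse 1 it was -3.59 ± 0.97 (edgeR adjusted p = 0.28). Without the 3 libraries that stood apart on gene length it was -1.74 ± 0.88 (edgeR adjusted p = 0.95). All 3 treated controls lay below the median of vehicle for this gene, and both groups overlapped. Cyp2c55 was at 0.281 ± 0.119 CPM with FGF21 compared with 0.871 ± 0.240 CPM with vehicle, groups that did not overlap, yet its log2 fold change of -1.63 ± 0.37 did not pass the test over all genes (edgeR adjusted p = 0.13). With the slope of each library on gene length as a covariate it was -1.79 ± 0.35 and was called (edgeR adjusted p = 0.024). It was not called without the 3 libraries that stood apart on gene length (-1.71 ± 0.44, edgeR adjusted p = 0.28). Nor was it called with the number series as a covariate (-1.52 ± 0.42) or without FGF21-treated control mouse 1 (-1.30 ± 0.41, edgeR adjusted p = 0.32).

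The interaction asks whether the genotype difference depended on treatment. It was called for 0 of the 10 genes by edgeR and 0 by DESeq2, beside 0.00417% of all genes by edgeR. The unadjusted p was under 0.05 for 2 of 10 by edgeR and 4 of 10 by DESeq2, beside 4.86% of all genes by edgeR. No such share by DESeq2 is given. The vehicle-treated mice enter both the interaction and the choice of the genes, so these values are not independent of that choice. The largest values were 3.44 ± 1.05 for Cyp2c54 (edgeR adjusted p = 0.98) and 2.32 ± 1.10 for Cyp2c69 (edgeR adjusted p = 0.98), on the log2 scale. That of Cyp2c54 was 4.95 ± 1.16 without FGF21-treated control mouse 1 (edgeR adjusted p = 0.44). Without the 3 libraries that stood apart on gene length it was 3.17 ± 1.14 (edgeR adjusted p = 0.99). For Cyp2c44 it was -0.18 ± 0.25. A smaller genotype difference with FGF21 than with vehicle was therefore not shown for any of these genes, and the width of the errors leaves room for sizeable differences.

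The make-up of the family differed between groups as well. Shares were taken of the summed CPM per kb of the 10 genes. In vehicle-treated controls, Cyp2c40, Cyp2c69, and Cyp2c37 held 6.12% ± 1.69, 7.29% ± 3.08, and 24.9% ± 4.15 (SD, n = 7). In vehicle-treated Lmna ADKO mice these shares were 1.31% ± 0.17, 0.274% ± 0.096, and 15.2% ± 3.66 (n = 6). The shares of Cyp2c70 (11.6% ± 2.98 and 17.3% ± 3.70), Cyp2c29 (25.8% ± 4.09 and 31.95% ± 4.03), and Cyp2c39 (0.230% ± 0.071 and 0.817% ± 0.483) were greater in Lmna ADKO mice. So was that of Cyp2c38 (2.975% ± 0.67 and 10% ± 3.24). Cyp2c44 held 6.85% ± 2.99 and 7.14% ± 2.50. In treated Lmna ADKO mice Cyp2c70 held 19.8% ± 2.88 and Cyp2c69 0.832% ± 0.749 (n = 8). Shares add up to 100% within a library, so a gene that kept its level gains share where others are lower.

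**Figure D4:**
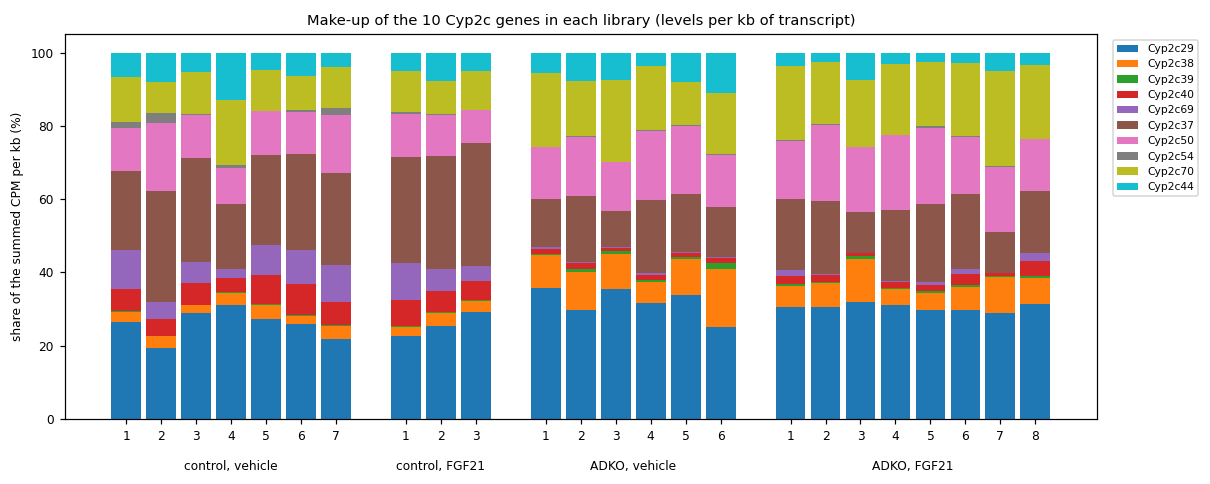
Share (%) of each of the 10 Cyp2c genes in their summed CPM per kb of transcript, 1 bar per library, in the 4 groups. Cyp2c40 and Cyp2c69 hold a visible part of each control bar and shrink to a thin band in Lmna ADKO mice, whereas the part of Cyp2c38 is wider there.

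Within groups, most of the genes varied together from mouse to mouse. After the group means were removed, the correlation of log2 CPM over the 24 libraries was 0.93 for Cyp2c40 with Cyp2c69, 0.93 for Cyp2c37 with Cyp2c50, 0.89 for Cyp2c29 with Cyp2c70, and 0.88 for Cyp2c29 with Cyp2c37. The points share libraries, and near-identical genes also share reads. Pairs of like identity could differ in this measure. The first 2 of these pairs are 97.9% and 96.1% identical and the third 68.5%, whereas Cyp2c38 with Cyp2c39 (94.2% identical) gave 0.24. Cyp2c67 with Cyp2c69, of unequal length and 92.3% identical over the longer sequence, gave -0.39. Cyp2c44 was the member least tied to the others, between -0.24 with Cyp2c39 and 0.27 with Cyp2c29. Cyp2c68, with the promoter nearest to that of Cyp2c69, varied most like Cyp2c70 (0.92) and Cyp2c29 (0.89).

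**Figure D5:**
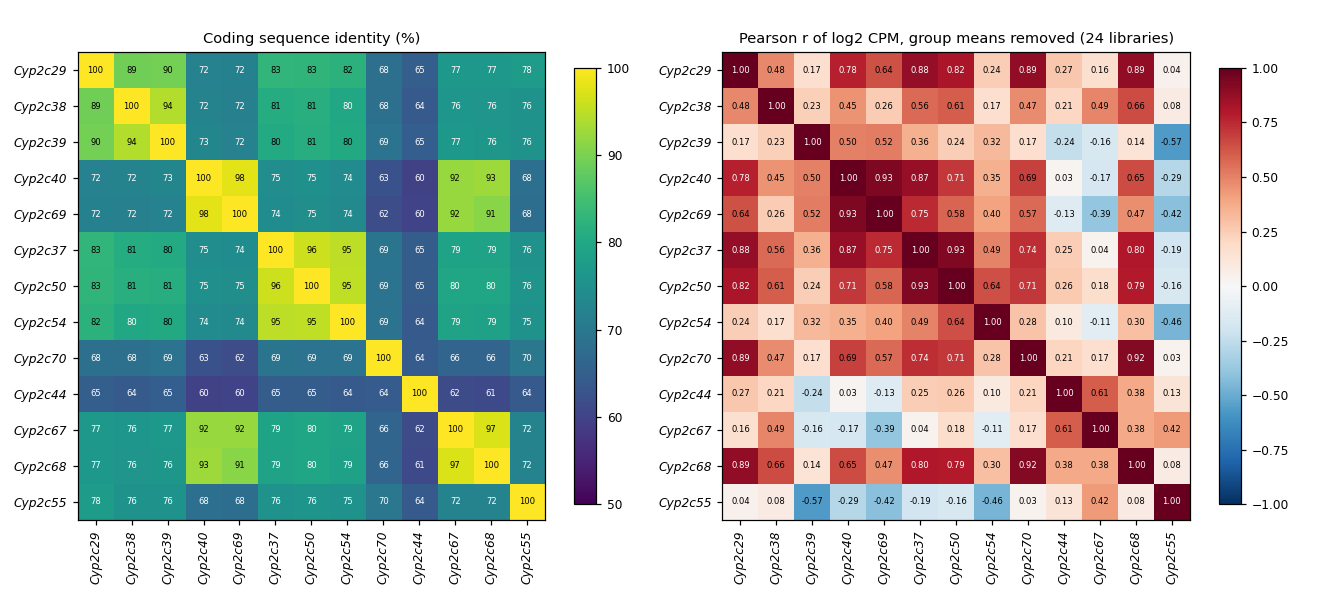
Left, identity (%) of coding sequences between 13 Cyp2c genes, over the longer sequence of each pair. Right, Pearson correlation of their log2 CPM over 24 libraries with group means removed, which is 0.93 for Cyp2c40 with Cyp2c69 and near 0 or below for Cyp2c44 with Cyp2c40 and Cyp2c69.

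Outside the family, the gene most like each member was sought among 12479 genes by the Pearson correlation of log2 CPM over the 24 libraries, which includes the difference between groups. For Cyp2c29 and Cyp2c37 it was Rdh16f2, a retinol dehydrogenase family gene, with 0.967 and 0.975 (0.931 and 0.916 with group means removed). For Cyp2c50 and Cyp2c70 it was Rgn, which encodes regucalcin, with 0.933 and 0.905 (0.871 and 0.825). For Cyp2c40 it was Prlr, the prolactin receptor, with 0.972 (0.884), and for Cyp2c69 the organic anion transporter gene Slc22a26, with 0.972 (0.892). Cyp2c44 was most like Gm17753 with 0.95, but only 0.51 with group means removed, and Cyp2c54 most like Prkd3, a protein kinase gene, with 0.87 and 0.55. Cyp2c38 and Cyp2c39 were most like Lmf1 (0.80 and 0.79) and Hopx (0.81 and 0.82).

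Genes that act with or upon the Cyp2c family were examined in lists, with vehicle, in the same fit. All lists were chosen with earlier results of these libraries known. Their counts and adjusted p-values are therefore a description and not independent tests. Of 22 regulators of Cyp2c genes, 5 were lower in Lmna ADKO mice and 0 were higher, against 3.36% and 5.12% of all genes, with a median log2 fold change of -0.28. Nr1i3, which encodes CAR, fell from 446 ± 140 to 222 ± 67.7 CPM, by 1.004 ± 0.212 on the log2 scale (edgeR adjusted p = 0.0016), and was also lower with FGF21 (-1.30 ± 0.24, edgeR adjusted p = 0.0023). Foxa2, a forkhead factor gene, fell by 0.80 ± 0.18 and Esr1, the estrogen receptor gene, by 0.67 ± 0.18 on the same scale (edgeR adjusted p = 0.0035 and 0.012). With the number series as a covariate, 2 of the 22, Nr1i3 and Esr1, were called, and Foxa2 was also not called without the 3 libraries that stood apart on gene length.

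The list of female-biased liver genes outside the family held the most genes that moved. Of 20 genes, 15 were lower with vehicle and 0 higher, with a median log2 fold change of -1.51, and 6 were lower with FGF21. Among them were Cux2, a female-specific repressor, which fell from 51.0 ± 18.9 to 2.14 ± 1.95 CPM, by 4.58 ± 0.75 on the log2 scale, and Cyp2b9, a P450 gene, which fell by 0.79 ± 0.14 (edgeR adjusted p = 0.00026 and 0.00019). Cyp3a44, another P450 gene, was at 7.69 ± 6.76 CPM in controls and 0.0742 ± 0.0542 CPM in Lmna ADKO mice (edgeR adjusted p = 6.2e-05), too few reads for a fold change. Like the other lists and the members, this list was chosen with earlier results of these libraries known. Of 20 male-biased genes, 6 were higher and 1, Sult1a1, was lower. Cyp2d9 rose from 41.2 ± 12.2 to 246 ± 67.4 CPM, by 2.58 ± 0.28, and Mup21, a urinary protein gene, rose by 2.13 ± 0.32 (edgeR adjusted p = 1.4e-06 and 4.5e-05). Of 13 genes of the growth hormone signal, 4 were lower and 0 higher. Igfals and Igf1, both growth hormone targets, fell by 1.54 ± 0.18 and 0.89 ± 0.17, Cish by 1.32 ± 0.31, and the fourth was Cux2 (edgeR adjusted p = 1.6e-06, 0.00061, and 0.005 for the first 3). With the number series as a covariate, Cish was not called and 4 male-biased genes were called higher.

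Partners of P450 enzymes and genes of the substrates and products were not lower as a rule. Of 10 electron donors and membrane partners, 3 were higher and 0 lower, namely Pgrmc2 (0.62 ± 0.10), Ephx1 (0.98 ± 0.18), which encodes an epoxide hydrolase, and Cyb5r3 (0.61 ± 0.11), in log2 fold change (edgeR adjusted p = 9.8e-05, 0.00031, and 0.0004). Pgrmc2 was not called with the number series as a covariate. Of 18 genes of the epoxyeicosanoid pathway measured, 5 were higher and 0 lower, among them the fatty acid elongase gene Elovl5 (1.47 ± 0.17), Acsl4 (1.06 ± 0.14), and the desaturase gene Fads2 (0.87 ± 0.20) (edgeR adjusted p = 5.8e-07, 6.4e-06, and 0.0039). Of 15 genes of bile acid synthesis, the setting of Cyp2c70, Scp2 was higher (0.74 ± 0.11) and Slc27a5, a bile acid ligase gene, lower (-0.75 ± 0.16) (edgeR adjusted p = 1.5e-05 and 0.0015). Of 19 genes of retinoid metabolism, 6 were higher, including Aldh1a1 (1.31 ± 0.22) and Aldh1a7 (1.52 ± 0.17), and 1 was lower, Dhrs3 (-0.94 ± 0.18) (edgeR adjusted p = 0.00012, 4.9e-07, and 0.00046).

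Target genes of CAR and PXR outside the family did not share 1 direction. Of 24 genes, 9 were higher and 4 lower, with a median log2 fold change of 0.37, and Ugt2b35 (0.85 ± 0.13) and Gstm2 (0.98 ± 0.20) were among those higher (edgeR adjusted p = 5.2e-05 and 0.0011). Of 18 pericentral hepatocyte genes, where many Cyp2c genes belong, 8 were lower and 2 higher, with a median of -0.55. Cyp1a2 fell from 317 ± 96.1 to 117 ± 22.2 CPM, by 1.44 ± 0.19, Rnase4 by 1.65 ± 0.24, Oat by 1.07 ± 0.19, and Notum by 1.18 ± 0.12 (edgeR adjusted p = 7.7e-06, 3.1e-05, 0.0003, and 2.2e-07). Of 18 periportal genes, 6 were lower and 1 higher, with a median of -0.24, among them the glutaminase gene Gls2 (-1.06 ± 0.18), Hal (-1.06 ± 0.20), and the urea cycle gene Cps1 (-0.93 ± 0.20) (edgeR adjusted p = 0.00013, 0.00053, and 0.0016). Lower levels were thus measured in both zones.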

How the data were processed

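The deposited values are counts of reads per gene in 24 libraries, made by the authors from polyA RNA with strand-specific libraries and not normalized. The submitters' processing notes name cutadapt 4.8, FastQC 0.11.8, STAR 2.7.8a, and RSEM 1.3.3 with GRCm38, without saying how reads shared by near-identical genes were divided. The methods give Ensembl 102 and the removal of genes with a count of 0 in all samples. All values were whole numbers, and library totals ran from 19863304 to 21510054. The authors tested genes with DESeq2.

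After TMM scaling, edgeR 4.0.16 (glmQLFit with robust fitting, glmQLFTest, in R 4.3.3) was run on the 4 groups in 1 fit over all 23972 genes with no filter. The Benjamini-Hochberg adjustment spans all genes. A call needs both an adjusted p under 0.05 and more than a 1.5-fold difference. SEs of log2 fold changes derive from the F statistic, and a prior count of 2 enters log2 CPM. Tests on simulated counts with 200 changed genes checked the fit. Exact permutation tests compare mean log2 CPM and are two-sided. The 67 pairs of libraries within groups differed by a chi-square per degree of freedom of 14.1 to 196, so no library was merged. Each library comes from a separately numbered mouse.

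Gene positions and transcripts are those of GENCODE M21, located for 23926 genes, levels per kb use the longest coding transcript, and promoters are from RefSeq (GRCm38.p6), with rows for 11 of the 13 Cyp2c genes that are not pseudogenes. Cyp2c65, Cyp2c66, and Cyp2j12 are not analysed here. Some genes that the naming rule would give are not reported here.

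The members and lists were chosen with earlier results of these data known. Named were all Cyp2c genes, up to 4 genes per list (those called with the smallest adjusted p between genotypes with vehicle, otherwise the most abundant), and the gene outside the family most like each member. The alternatives were DESeq2 1.42.0, its size factors in edgeR, genes kept by filterByExpr, the adjusted p alone, only the groups compared, covariates for the number series or the gene length slope, libraries left out, only 4-digit mice, and near-identical genes summed. For the lists, 2 of these were added after seeing the data.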

Additional observations from a re-analysis of the deposited data

Results flagged for a closer look

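Of 30 sets of values (10 genes in the 3 groups of 6 to 8 mice), 3 held a mouse that stood apart from its group by Dixon's test on log2 CPM, where chance gives about 1 in 20. All 3 were the low value of FGF21-treated Lmna ADKO mouse 3, for Cyp2c29 (183 CPM, a gap of 0.725 of the range of the group), Cyp2c37 (64.45 CPM, 0.547), and Cyp2c70 (100.2 CPM, 0.766). The gap for these genes was measured in the same mouse and is thus not 3 independent observations.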

How the results depend on the processing

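With vehicle, 8 of the 10 genes were called lower in Lmna ADKO mice under all alternatives run, left-out libraries (8 to 8) included. With FGF21, the 4 genes called lower became 1 with only 4-digit mice, a fit of fewer mice, and were 3 to 5 under the other alternatives (3 to 4 with 1 library left out, 3 without FGF21-treated control mouse 2 or 3). For FGF21 against vehicle in Lmna ADKO mice, the count ran from 0 to 1 with 1 library left out (1 without FGF21-treated Lmna ADKO mouse 3), and was 0 under the other alternatives, as it was in controls and for the interaction under all alternatives. Of 22 regulators of Cyp2c genes, 5 were called with vehicle and 2 with the number series as a covariate, for which the cause was not tested. Summing near-identical genes moved the log2 fold change with vehicle to -1.59 for Cyp2c40 and Cyp2c69 and to -2.02 for Cyp2c50 and Cyp2c54, by construction. No paired analysis was possible because replicate numbers only name the mice and no animal number is shared between groups. With 3 FGF21-treated controls, comparisons with that group are the least precise.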

Other observations

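Lmna itself, deleted in adipocytes but not in hepatocytes, was at 15.7 to 22.1 CPM in the livers of vehicle-treated controls and at 23.6 to 31.0 CPM in those of vehicle-treated Lmna ADKO mice. Among other P450 subfamilies with vehicle, 5 of 10 Cyp3a genes were lower and 2 higher in Lmna ADKO mice, 3 of 6 Cyp2a genes were lower and 0 higher, 0 of 6 Cyp2j genes were called by edgeR, and 1 of 11 Cyp2d genes was lower and 2 were higher. These subfamilies were looked at after the values were seen.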
